A study of Mus musculus with 4 samples.

Results

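RNA-seq values of 10 receptor tyrosine kinase genes were examined in 4 libraries of cultured mouse neural progenitors. The genes were the FGF receptors *Fgfr1*, *Fgfr2*, *Fgfr3* and *Fgfr4*, the ErbB receptors *Egfr*, *Erbb2*, *Erbb3* and *Erbb4*, the neurotrophin receptor *Ntrk2* and the stem cell factor receptor *Kit*. They were taken by an exact match of gene symbol, a rule that uses no measured value, from a list drawn up with earlier results of these data known, and all 10 were among the 21091 entries of each library. Expression was given as FPKM, a read density scaled to transcript length and to the mapped fragments of a library, so levels of different genes can be set side by side per unit of length. Of the 10 genes, 8 averaged at least 1 FPKM across the 4 libraries, as did 12449 of the 21091 entries, and *Fgfr4* and *Erbb3* did not.

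The progenitors came from C57BL/6 embryos at embryonic day 11 (E11) or 14 (E14) and were grown in suspension for 3 days, by the culture methods in serum-free medium with EGF and FGF. Each stage had 1 control library (CTL) and 1 library from Nestin-Cre embryos with both *Stat3* alleles floxed (*Stat3* cKO). In the *Stat3* cKO, Cre recombinase is expressed from rat Nestin regulatory sequences and therefore acts in neural progenitors and the cells they give rise to, and it removes exons of *Stat3* that encode the SH2 domain. The labels name the control as WT, as do the RNA-seq methods, while the animal methods describe the control as a Nestin-Cre embryo with 1 floxed and 1 normal *Stat3* allele. Whether the CTL embryos carried Cre is therefore not settled, and an effect of Cre and one of the *Stat3* deletion cannot be told apart if they did not. How many embryos went into a library is not given in the sources used here. With 1 library per group the spread between replicates is unknown, so all ratios below are descriptions of these libraries, with no test and no p-value.

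FGF receptors bind FGFs together with heparan sulfate, pair up at the membrane and signal through the adaptor FRS2 and the RAS-ERK cascade, which in the embryonic neural tube supports progenitor division and survival. ErbB receptors work as pairs: EGFR binds EGF, TGF-alpha and HB-EGF, ERBB3 and ERBB4 bind neuregulins, and ERBB2 has no ligand of its own and serves as a partner, and EGFR is known for its increase in later neural progenitors. NTRK2 (TrkB) is the receptor for BDNF and neurotrophin-4, made in neurons with its kinase and in glial cells largely as a truncated form without it, and KIT is the receptor for stem cell factor, encoded by *Kitl*, best known from blood, germ and pigment cells.

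All 10 genes lie on autosomes: *Fgfr1* on chromosome 8, *Fgfr2* on 7, *Fgfr3* and *Kit* on 5, *Fgfr4* and *Ntrk2* on 13, *Egfr* and *Erbb2* on 11, *Erbb3* on 10 and *Erbb4* on 1. Their promoters differ in base composition. Windows of 300 bases around RefSeq transcript starts of GRCm38.p6, most of each lying upstream of the start, were at hand for 8 of the 10 genes, in 10 windows, and *Fgfr1* and *Erbb3* had none. Those of 4 genes are shown 5′ to 3′ because the comparisons below turn on them: of the 8 genes above 1 FPKM, *Fgfr2* had the only ratio of at least 2 between genotypes, and *Egfr*, *Ntrk2* and *Kit* differed at least 2-fold between stages in both genotypes. Capitals mark CpG dinucleotides, the sites of DNA methylation. The *Fgfr2* window lies at chr7:130266759-130267058 on the minus strand, the *Egfr* window at chr11:16751953-16752252 on the plus strand, the *Ntrk2* window at chr13:58806319-58806618 on the plus strand, and the *Kit* window at chr5:75574737-75575036 on the plus strand.
Fgfr2: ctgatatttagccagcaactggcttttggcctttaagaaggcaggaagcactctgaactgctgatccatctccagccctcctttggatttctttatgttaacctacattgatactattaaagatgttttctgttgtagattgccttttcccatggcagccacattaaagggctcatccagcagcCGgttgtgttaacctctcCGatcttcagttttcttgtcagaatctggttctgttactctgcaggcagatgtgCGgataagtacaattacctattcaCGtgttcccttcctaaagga
Egfr: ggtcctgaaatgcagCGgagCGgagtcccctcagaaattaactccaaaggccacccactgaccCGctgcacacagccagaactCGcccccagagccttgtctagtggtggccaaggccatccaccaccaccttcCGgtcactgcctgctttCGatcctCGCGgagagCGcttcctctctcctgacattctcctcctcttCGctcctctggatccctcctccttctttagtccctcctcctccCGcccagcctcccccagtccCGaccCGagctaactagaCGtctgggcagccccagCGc
Ntrk2: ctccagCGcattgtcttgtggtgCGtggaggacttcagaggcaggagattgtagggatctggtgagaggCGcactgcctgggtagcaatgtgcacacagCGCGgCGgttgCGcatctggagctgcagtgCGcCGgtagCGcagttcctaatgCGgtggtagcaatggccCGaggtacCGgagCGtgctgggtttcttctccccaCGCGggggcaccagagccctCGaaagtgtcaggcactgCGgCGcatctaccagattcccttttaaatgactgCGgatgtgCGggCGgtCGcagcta
Kit: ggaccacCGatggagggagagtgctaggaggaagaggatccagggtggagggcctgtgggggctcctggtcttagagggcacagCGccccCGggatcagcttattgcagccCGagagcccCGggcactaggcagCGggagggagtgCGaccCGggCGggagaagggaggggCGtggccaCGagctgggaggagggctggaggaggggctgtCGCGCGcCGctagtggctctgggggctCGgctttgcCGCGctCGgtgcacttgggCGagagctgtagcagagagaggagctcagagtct

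The *Fgfr2* window held 4 CpG and was 43.7% G and C, whereas the *Egfr* window held 15 CpG, the *Kit* window 20 and the *Ntrk2* window 23. Over 32851 windows of the same length, from 27025 genes, the median was 7 CpG and 52.7% G and C, and 31.4% of windows had fewer CpG than that of *Fgfr2*. It was the only one of the 10 windows below the median, since the other 9 held from 15 to 30 CpG. The windows were also searched on both strands for TTCNNNGAA, the spaced palindrome that STAT proteins bind, which reads the same on either strand. None of the 10 windows held it, against 8.30% of all windows, and this says only that these letters are absent from these windows.

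Facts on the libraries bear on what follows. The targeted gene *Stat3* was at 7.41 (CTL) and 6.74 (*Stat3* cKO) FPKM at E11 and at 27.6 (CTL) and 9.55 (*Stat3* cKO) FPKM at E14. The *Stat3* cKO value was 0.346 of that in CTL at E14 but 0.911 of it at E11, so at E11 the FPKM of the targeted gene hardly separated the genotypes. This value also counts reads from exons that the deletion leaves in place, so it does not measure the deletion. By the authors' account, the knockout in neural progenitors is reached by E14. The smallest values that single fragments leave gave relative depths of 1.09 and 0.851 at E11 and 0.917 and 1 at E14, CTL first. The FPKM of all entries summed to 948738 and 806587 at E11 and to 1.39405e+06 and 1.46177e+06 at E14, CTL first. These sums differed most between stages, and ratios of values scaled to them were not computed. Which of the calls below would hold under that scaling was not tested. Neural progenitor markers were present throughout, as all 8 genes of that list (such as *Nes*, *Sox2* and *Pax6*) had at least 14.6 FPKM in every library. Markers of mesenchyme were high at E11 and low at E14: the 7 genes of that list, with collagens and *Twist1*, summed to 1210 (CTL) and 1109 (*Stat3* cKO) FPKM at E11 and 16.9 (CTL) and 12.9 (*Stat3* cKO) FPKM at E14. All 7 were lower at E14 in both genotypes, and every stage ratio below was taken beside this change. The Y-linked gene *Ddx3y*, chosen after its values were seen, was at 0 FPKM in both E11 libraries and at 0.0569 (CTL) and 25.1 (*Stat3* cKO) FPKM at E14, so at E14 a difference in the sex of the embryos and one in genotype cannot be told apart. The same holds for sex and stage in the E14 to E11 ratios of *Stat3* cKO, and for their difference from the CTL ratios.

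Among the FGF receptors, *Fgfr3* was the highest in every library. It was at 35.1 (CTL) and 38.3 (*Stat3* cKO) FPKM at E11 and at 45.9 (CTL) and 73.6 (*Stat3* cKO) FPKM at E14, with the E14 *Stat3* cKO library standing above the other 3. In bulk RNA, fewer cells that express a gene and less RNA per cell cannot be told apart, for this gene and all others. *Fgfr2* was at 30.6 (CTL) and 33.9 (*Stat3* cKO) FPKM at E11 and at 13.6 (CTL) and 32.9 (*Stat3* cKO) FPKM at E14. For *Fgfr2*, then, 3 libraries lay within 30.6 to 33.9 FPKM and E14 CTL was the low one. *Fgfr1* was at 14.6 (CTL) and 15.7 (*Stat3* cKO) FPKM at E11 and at 12.2 (CTL) and 8.67 (*Stat3* cKO) FPKM at E14, so the library highest for *Fgfr3* was the lowest for *Fgfr1*. *Fgfr4* was close to undetected, at 0.150, 0.0586, 0.0401 and 0.126 FPKM in the same order, which is roughly 24, 7.3, 5.4 and 19 fragments, and no ratio is read from it.

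Among the ErbB receptors, *Egfr* was the highest in every library and separated the stages. It was at 13.8 (CTL) and 13.2 (*Stat3* cKO) FPKM at E11 and at 43.3 (CTL) and 42.8 (*Stat3* cKO) FPKM at E14, so that both E14 libraries lay above both E11 libraries while the genotypes were side by side. *Erbb2*, the partner without a ligand, was at 5.97 (CTL) and 7.35 (*Stat3* cKO) FPKM at E11 and at 7.20 (CTL) and 6.04 (*Stat3* cKO) FPKM at E14. It was the steadiest of the 10 genes, with the highest library at 1.23 times the lowest. *Erbb4* was at 3.74 (CTL) and 3.19 (*Stat3* cKO) FPKM at E11 and at 3.59 (CTL) and 6.06 (*Stat3* cKO) FPKM at E14, and only the last stood apart. *Erbb3* was at 0.102, 0.0607, 0.0888 and 0.180 FPKM in that order, roughly 30, 14, 22 and 48 fragments. Of the neuregulin receptors, therefore, *Erbb4* was above 1 FPKM and *Erbb3* below it in all 4 libraries.

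*Ntrk2* spanned the widest range of the 8 genes above the minimum. It was at 15.4 (CTL) and 9.88 (*Stat3* cKO) FPKM at E11 and at 53.6 (CTL) and 85.6 (*Stat3* cKO) FPKM at E14, the highest of these libraries being 8.66 times the lowest. The E11 *Stat3* cKO library was thus the lowest of the 4 and the E14 *Stat3* cKO library the highest. *Kit* ran the other way, at 8.06 (CTL) and 5.57 (*Stat3* cKO) FPKM at E11 and at 2.74 (CTL) and 2.24 (*Stat3* cKO) FPKM at E14, with both E14 libraries below both E11 libraries. FPKM is given per gene here, so transcript forms were not separated. This matters for *Ntrk2*, whose complete coding transcripts in GENCODE M21 range from 466 to 821 codons, the short receptor known from glial cells being one without the kinase domain.

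**Figure D1:**
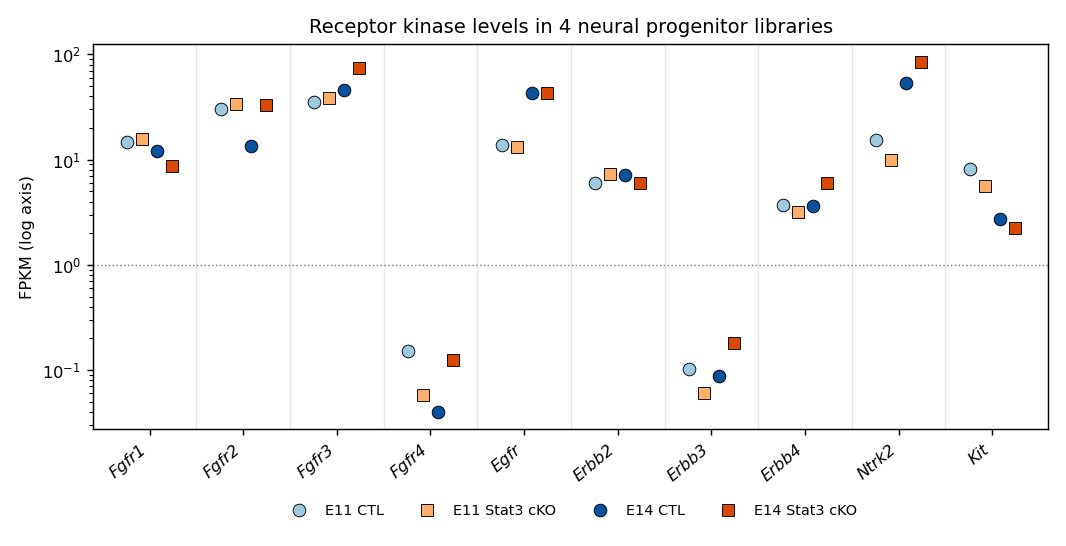
FPKM on a log axis of the 10 receptor kinase genes in the 4 libraries, 1 point per library, with a dotted line at 1 FPKM. *Fgfr4* and *Erbb3* lie below the line in all 4 libraries, *Egfr* and *Ntrk2* are higher and *Kit* is lower in both E14 libraries than in both E11 libraries, and *Fgfr2* is low in E14 CTL at 13.6 FPKM.

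The order of the receptors changed between stages. *Fgfr3* was the highest of the 10 genes in both E11 libraries, followed by *Fgfr2*, and *Ntrk2* was the highest in both E14 libraries, followed by *Fgfr3* and then *Egfr*. The distance between the highest and lowest of the 8 genes was 9.37-fold (CTL) and 12.0-fold (*Stat3* cKO) at E11 and 19.5-fold (CTL) and 38.2-fold (*Stat3* cKO) at E14, since *Ntrk2* was high and *Kit* low at E14. Without replicates it cannot be said which neighbors in these orders differ beyond their spread.

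At E14, the question was which receptors differed between *Stat3* cKO and CTL progenitors. *Fgfr2* was 2.43 times CTL in *Stat3* cKO (log2 ratio 1.28) and was the only one of the 8 genes, the members from here on, to reach 2-fold. *Erbb4* was 1.69 times CTL, and *Fgfr3* and *Ntrk2* were each 1.60 times CTL, below that threshold. *Fgfr1* was the lowest in ratio, at 0.712 times CTL. *Egfr*, the receptor for the EGF in the medium, was 0.989 times CTL, a log2 ratio of -0.015 that turned to 0.063 with the median gene set to 0 and to 0.14 with upper-quartile scaling. Thus 1 of 8 members was at least 2-fold higher, where 1.85% of all genes with a ratio were, and 0 of 8 were at least 2-fold lower, where 1.69% of all genes were. The median log2 ratio of the 8 members was 0.33 and that of all genes -0.079.

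Several other values moved along with genotype at E14. Of the 8 neural progenitor markers, 1 was at least 2-fold higher, *Hes5*, at 124 (CTL) and 294 (*Stat3* cKO) FPKM, or 2.37 times CTL, while *Hes1* was 0.630 times CTL. Of the oligodendrocyte precursor markers, *Sox10* was at 6.74 (CTL) and 20.6 (*Stat3* cKO) FPKM, and *Gpr17* at 5.58 and 21.3, while the sum of the 7 markers on that list was 566 and 554 FPKM. Of these 7 markers 5 were higher in *Stat3* cKO. The exceptions were the most abundant, *Olig1* at 345 (CTL) and 311 (*Stat3* cKO) FPKM and *Olig2* at 168 and 134, or 0.902 and 0.799 times CTL. The 8 markers of neural crest, Schwann cells and melanocytes, which include *Sox10* and are of interest for *Kit*, summed to 13.2 (CTL) and 34.9 (*Stat3* cKO) FPKM at E14 and to 4.53 and 3.29 at E11, so *Kit* was lowest where this sum was highest. The sum of the 8 astrocyte markers was 501 (CTL) and 611 (*Stat3* cKO) FPKM. Of these 8 markers 7 were higher in *Stat3* cKO, among them *S100b* at 2.37, *Aqp4* at 2.29 and *Aldh1l1* at 1.74 times CTL, whereas *Gfap* was at 0.207 times CTL. The 8 neuron markers summed to 1054 and 898 FPKM. The part of these differences, and of *Ddx3y*, in the receptor ratios was not tested. Markers of endothelium summed to at most 5.36 FPKM and those of blood and microglia to at most 2.31 FPKM in any library, and the microglial marker *Aif1* was at 0 in E14 CTL.

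At E11, where the FPKM of *Stat3* was 0.911 times CTL, no member reached 2-fold. *Ntrk2*, at 0.642 times CTL, and *Kit*, at 0.690 times CTL, were the furthest from CTL, both toward lower values in *Stat3* cKO. The 3 FGF receptors above the minimum were between 1.08 and 1.11 times CTL, and *Egfr* was 0.956 times CTL. In all, 0 of 8 members were at least 2-fold higher, against 0.209% of all genes, and 0 of 8 were at least 2-fold lower, against 1.12% of all genes. The median log2 ratio was 0.024 over the members and 0.059 over all genes.

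*Ntrk2* differed from CTL by at least 1.5-fold in opposite directions at the 2 stages, with log2 ratios of -0.64 at E11 and 0.68 at E14. It was the only one of the 8 members to do so, where 0.854% of all genes did. No other member with opposite signs reached that size at both stages: *Erbb4* was 0.853 times CTL at E11 and 1.69 times at E14.

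**Figure D2:**
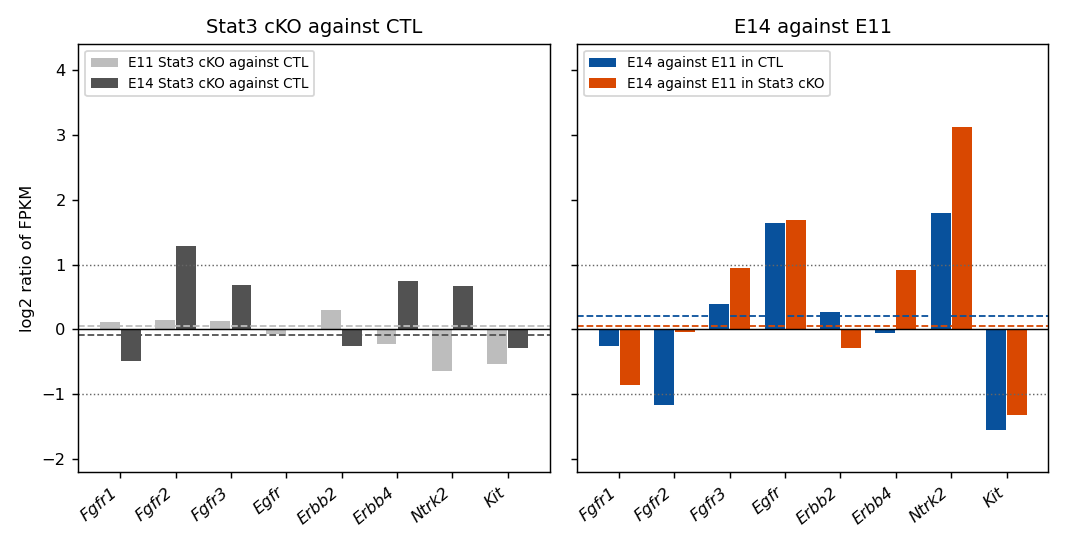
Log2 ratios of FPKM for the 8 receptor genes that average 1 FPKM or more, *Stat3* cKO against CTL at each stage (left) and E14 against E11 in each genotype (right). Bars are single ratios without error, dotted lines mark 2-fold, and dashed lines mark the median of all genes in that comparison. *Fgfr2* passes 2-fold at E14 with 1.28, and *Ntrk2* has bars of opposite sign, -0.64 at E11 and 0.68 at E14.

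Between stages, the members moved apart. In CTL, *Ntrk2* was 3.48 times and *Egfr* 3.13 times as high at E14 as at E11, while *Kit* was 0.340 times and *Fgfr2* 0.444 times its E11 level. The other 4 members stayed between 0.838 and 1.31 times E11, and the direction for *Erbb2* was not stable, at a log2 ratio of 0.27 as deposited and -0.099 with upper-quartile scaling. In CTL, 2 of 8 members were therefore at least 2-fold higher at E14, where 14.6% of all genes were, and 2 of 8 were at least 2-fold lower, where 12.5% of all genes were. The median log2 ratio was 0.11 over the members and 0.21 over all genes.

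In *Stat3* cKO, *Ntrk2* was 8.66 times and *Egfr* 3.24 times as high at E14 as at E11, and *Kit* was 0.403 times its E11 level. *Fgfr3*, at 1.92 times, and *Erbb4*, at 1.90 times, came close to 2-fold, and *Fgfr1* was at 0.551 times. *Fgfr2* was at 0.970 times its E11 level. Here 2 of 8 members were at least 2-fold higher, against 10.1% of all genes, and 1 of 8 was at least 2-fold lower, against 11.7% of all genes. With upper-quartile scaling 2 of 8 were lower, as *Fgfr1* then reached a log2 ratio of -1.01. The median log2 ratio was 0.44 over the members and 0.058 over all genes. The mesenchyme markers, in sum, were 71.5-fold lower at E14 in CTL and 85.7-fold lower in *Stat3* cKO. The summed markers of glial lineages were higher at E14, but not every marker was. The oligodendrocyte precursor markers summed to 70.5 (CTL) and 90.7 (*Stat3* cKO) FPKM at E11, against 566 and 554 at E14, and the astrocyte markers to 274 and 280 at E11, against 501 and 611 at E14. Of the astrocyte markers above the minimum, 4 of 7 were at least 2-fold higher and 2 of 7 at least 2-fold lower at E14 in CTL, and of the precursor markers 5 of 7 and 1 of 7. In CTL the astrocyte marker *Gja1* was at 138 FPKM at E11 and 13.1 at E14, and the precursor marker *Nkx2-2* at 2.93 and 0.583. The part of these lists in the stage ratios was not tested.

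The difference between the 2 stage ratios, *Stat3* cKO minus CTL on the log2 scale, separated the receptors further. It was 1.31 for *Ntrk2*, 1.13 for *Fgfr2*, 0.98 for *Erbb4* and 0.56 for *Fgfr3*, all toward a higher E14 to E11 ratio in *Stat3* cKO. It was 0.24 for *Kit* and 0.050 for *Egfr*, whose stage ratios were thus nearly alike in both genotypes. *Erbb2*, at -0.55, and *Fgfr1*, at -0.60, had the lower E14 to E11 ratio in *Stat3* cKO. With *Ntrk2* and *Fgfr2*, 2 of 8 members had a stage ratio at least 2-fold higher in *Stat3* cKO than in CTL, where 3.17% of all genes did. Over all genes the median difference was -0.12, and over the members it was 0.40. This difference is built from the same 4 libraries as the ratios above and adds no independent measurement.

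Shares within a receptor family do not depend on how a library was scaled. The 4 FGF receptors summed to 80.4 (CTL) and 88.0 (*Stat3* cKO) FPKM at E11 and 71.7 (CTL) and 115 (*Stat3* cKO) FPKM at E14. *Fgfr3* made up 43.7% and 43.5% of the sum in the 2 E11 libraries and 64.0% and 63.8% in the 2 E14 libraries, CTL first, so its share separated the stages and not the genotypes. *Fgfr2* and *Fgfr1* divided the rest alike in both genotypes at E11 and unlike at E14. *Fgfr2* took 38.0%, 38.5%, 18.9% and 28.5%, and *Fgfr1* took 18.1%, 17.9%, 17.0% and 7.52%, first for CTL and *Stat3* cKO at E11 and then for both at E14. Within a library there was 2.10 (CTL) and 2.15 (*Stat3* cKO) times as much *Fgfr2* as *Fgfr1* at E11, and 1.11 (CTL) and 3.79 (*Stat3* cKO) times as much at E14.

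The ErbB family shifted toward *Egfr* with stage in both genotypes. Its sum was 23.7 (CTL) and 23.8 (*Stat3* cKO) FPKM at E11 and 54.2 (CTL) and 55.1 (*Stat3* cKO) FPKM at E14, and the share of *Egfr* was 58.5%, 55.5%, 79.9% and 77.7%. *Erbb2* made up 25.2%, 30.8%, 13.3% and 11.0% in the same order, so that there was 2.32 and 1.80 times as much *Egfr* as *Erbb2* at E11, and 6.01 and 7.09 times as much at E14. *Erbb4* made up 15.8%, 13.4%, 6.64% and 11.0%, and *Erbb3* under 1% throughout.

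**Figure D3:**
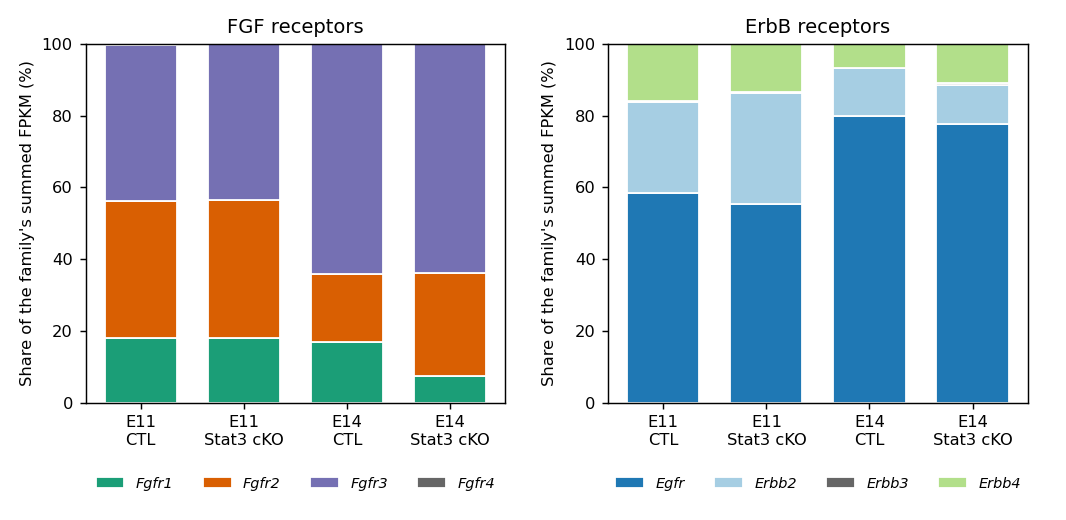
Share in percent of each gene in the summed FPKM of the FGF receptors (left) and ErbB receptors (right), 1 bar per library. The share of *Fgfr3* is 43.7% and 43.5% at E11 and 64.0% and 63.8% at E14, the share of *Fgfr1* is smallest in E14 *Stat3* cKO at 7.52%, and *Fgfr4* and *Erbb3* are too small to be seen.

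The genes for the ligands of these receptors were read from lists of symbols. Of 22 FGF genes, 5 reached a mean of 1 FPKM. *Fgf15*, an FGF of the early embryonic brain, was at 101 (CTL) and 104 (*Stat3* cKO) FPKM at E11 and at 0.328 (CTL) and 0.585 (*Stat3* cKO) FPKM at E14, the largest contrast between stages among the ligands. The others that differed 2-fold in some comparison, *Fgf11*, *Fgf12* and *Fgf13*, encode FGF homologous factors, which stay inside the cell and are not ligands of the FGF receptors in the usual sense. *Fgf13* was at 5.81, 4.77, 10.2 and 9.83 FPKM and *Fgf12* at 1.75, 1.26, 5.21 and 5.13 FPKM in the order of libraries used above. *Fgf13* reached 2-fold only between stages in *Stat3* cKO, at 2.06 times, a call lost with the median gene set to 0, with upper-quartile scaling and with a pseudocount of 1 FPKM. *Fgf11* was 2.01 times CTL in *Stat3* cKO at E14, just past 2-fold, a call that was lost with a pseudocount of 0.1 or 1 FPKM. At E14, then, *Fgf15* was under 1 FPKM in both genotypes. *Fgf1*, outside the naming rule and chosen after its values were seen, was under the minimum as a mean but at 2.35 (CTL) and 0.983 (*Stat3* cKO) FPKM at E14. *Fgf2* and *Fgf10*, chosen in the same way and also under the minimum, were instead lower at E14 than at E11. In the order used above, *Fgf2* was at 1.39, 1.44, 0.0898 and 0.261 FPKM and *Fgf10* at 1.02, 0.583, 0.196 and 0.348 FPKM.

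Of 11 genes for EGF-type ligands and neuregulins, 4 reached a mean of 1 FPKM, and those that bind EGFR were higher at E14, as *Egfr* was. *Tgfa* was at 0.689 (CTL) and 0.665 (*Stat3* cKO) FPKM at E11 and at 4.84 (CTL) and 7.41 (*Stat3* cKO) FPKM at E14. *Hbegf* was at 1.72, 1.34, 11.6 and 4.46 FPKM in the same order. Both were at least 2-fold higher at E14 in each genotype, but between genotypes at E14 they lay on different sides, with *Hbegf* 0.386 times CTL and *Tgfa* 1.53 times CTL. Thus 2 of 4 were at least 2-fold higher between stages, where 14.6% of all genes were in CTL and 10.1% in *Stat3* cKO, and *Hbegf* was the 1 of 4 at least 2-fold lower between genotypes at E14, where 1.69% of all genes were.

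The ligand of KIT differed between stages in the direction opposite to its receptor. *Kitl* was at 3.72 (CTL) and 3.94 (*Stat3* cKO) FPKM at E11 and at 36.5 (CTL) and 25.7 (*Stat3* cKO) FPKM at E14. The ratio of *Kitl* to *Kit* within a library was 0.461 and 0.708 at E11 and 13.3 and 11.4 at E14, CTL first, so the ligand was below its receptor at E11 and above it at E14.

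For NTRK2 the best known ligand gene, *Bdnf*, missed the minimum, at 1.83 (CTL) and 0.789 (*Stat3* cKO) FPKM at E11 and at 0.515 (CTL) and 0.558 (*Stat3* cKO) FPKM at E14; it lies outside the naming rule and was chosen after its values were seen. The related receptor *Ntrk3*, which binds neurotrophin-3, was also higher at E14, at 3.54, 2.19, 9.60 and 10.2 FPKM in that order, and its ligand gene *Ntf3* was lower, at 3.90, 3.28, 1.04 and 1.14 FPKM. *Ngfr*, the shared low-affinity receptor p75, was at 3.19, 3.68, 0.849 and 0.501 FPKM and thus lower at E14.

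**Figure D4:**
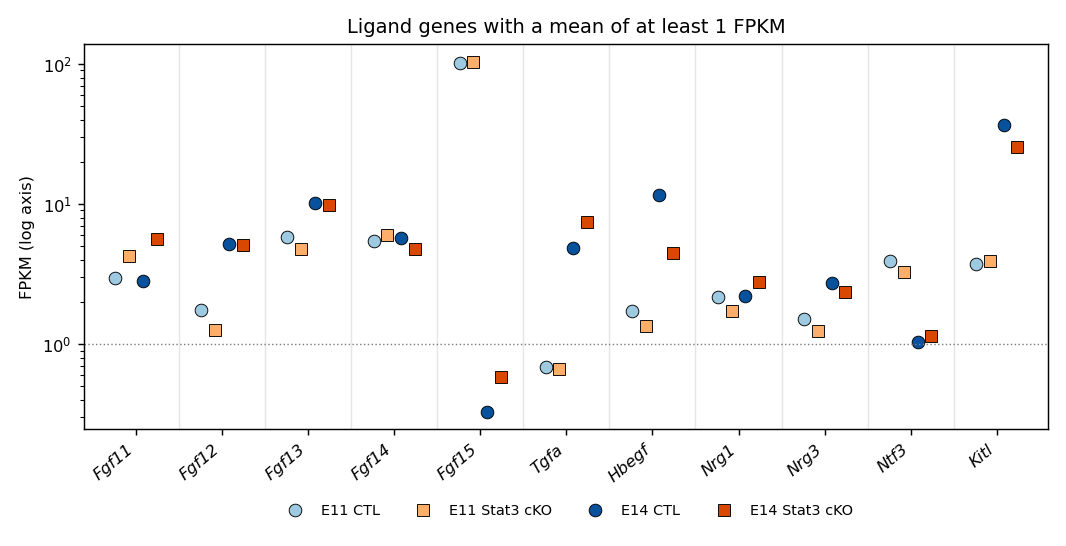
FPKM on a log axis of 11 ligand and FGF-like genes that average 1 FPKM or more, 1 point per library, with a dotted line at 1 FPKM. *Fgf15* is at 101 and 104 FPKM at E11 and below 1 FPKM at E14, while *Tgfa*, *Hbegf* and *Kitl* are higher in both E14 libraries than in both E11 libraries.

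Genes that work with the receptors at the membrane were read next. Of 20 FGF co-receptor and heparan sulfate proteoglycan genes, 15 were above the minimum, and 0 of 15 passed 2-fold between genotypes at either stage, where at E14 1.85% of all genes were higher and 1.69% lower. In CTL, 2 were at least 2-fold higher at E14, namely *Fgfrl1*, a receptor that binds FGF but lacks the kinase, at 4.36 times, and the syndecan *Sdc3* at 2.21 times, and 5 were at least 2-fold lower, against 14.6% and 12.5% of all genes. With upper-quartile scaling the call of *Sdc3* was lost and 8 genes were lower, and with the median gene set to 0 the call of *Sdc3* was lost and 6 were lower. The lowest of these was *Gpc3*, a glypican, at 178 FPKM in E11 CTL and 1.71 in E14 CTL, with 186 in E11 *Stat3* cKO and 1.34 in E14 *Stat3* cKO. In *Stat3* cKO 2 were higher, 1 with upper-quartile scaling, and 5 lower, against 10.1% and 11.7% of all genes. Of the 5 lower genes, 4 were shared by both genotypes. The median log2 ratio was -0.63 in CTL and -0.58 in *Stat3* cKO. *Gpc2* was the highest of the list in E14 CTL, at 63.0 FPKM.

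The adaptors and the RAS-ERK cascade were read in the same way. Of 24 symbols 23 were matched and all 23 were above the minimum, and 0 of 23 passed 2-fold between genotypes at E14 or at E11, with median log2 ratios of -0.087 and 0.053, near the -0.079 and 0.059 of all genes. At E14 1.85% of all genes were higher and 1.69% lower, so a count of 0 among 23 is near the background. Between stages in CTL, 4 of 23 were at least 2-fold higher and 1 of 23 lower, 3 with upper-quartile scaling, where 14.6% and 12.5% of all genes were. Of the 4 SHC adaptor genes, 3 differed by at least 2-fold. *Shc1* was at 34.5 (CTL) and 37.8 (*Stat3* cKO) FPKM at E11 and at 5.47 (CTL) and 6.58 (*Stat3* cKO) FPKM at E14, while *Shc3*, the form known from neurons, was at 11.2, 10.4, 45.9 and 31.4 FPKM and *Shc4* at 1.03, 0.748, 7.74 and 6.75 FPKM. *Hras1* and *Map2k1*, which encodes MEK1, were at least 2-fold higher at E14 in CTL, at 2.20 and 2.09 times, and at 1.47 and 1.62 times in *Stat3* cKO. Setting the median gene to 0 or upper-quartile scaling left 2 of the 4 genes called higher in CTL, and *Hras1* and *Map2k1* were the ones lost.

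Of the inhibitors that act on the receptors themselves, 11 were above the minimum, and 0 of 11 passed 2-fold between genotypes at either stage, a count near the background of 1.85% higher and 1.69% lower at E14. Between stages in CTL, 2 of 11 were at least 2-fold higher, *Lrig1* and *Ptprj*, and 3 of 11 lower, where 14.6% and 12.5% of all genes were. With upper-quartile scaling 1 was higher, the call of *Ptprj* at 2.55 times being lost, and 4 were lower, as were 4 with the median gene set to 0. In *Stat3* cKO 1 of 11 was higher and 3 of 11 lower, against 10.1% and 11.7% of all genes. *Lrig1*, which promotes the breakdown of ErbB receptors, was at 24.3 (CTL) and 27.5 (*Stat3* cKO) FPKM at E11 and at 100 (CTL) and 66.2 (*Stat3* cKO) FPKM at E14, higher at E14 as *Egfr* was. *Errfi1*, which binds and blocks the EGFR kinase, was at 18.4, 16.2, 6.96 and 7.06 FPKM, and *Cblb*, a ubiquitin ligase for receptor kinases, at 7.47, 9.46, 2.15 and 2.07 FPKM, both lower at E14. *Lrig3* was lower at E14 as well, at 0.158 times E11 in CTL and 0.260 times in *Stat3* cKO, so members of the same family differed in direction.

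The 46 other receptor tyrosine kinases gave a comparison for the stage ratios. Of these, 27 were above the minimum, and 14 of 27 were at least 2-fold lower at E14 in CTL, as were 14 of 27 in *Stat3* cKO, against 1 and 4 that were at least 2-fold higher. The higher counts were 0 and 2 with upper-quartile scaling and 0 and 3 with the median gene set to 0. Over all genes, 12.5% and 11.7% were lower and 14.6% and 10.1% higher. Their median log2 ratio between stages was -1.12 in CTL and -1.21 in *Stat3* cKO, whereas that of the 8 members was 0.11 and 0.44. The 14 genes, which included *Pdgfrb*, *Ddr2*, *Ror1*, *Ror2* and *Axl*, were shared by both genotypes, 14 of 14. *Pdgfrb* is itself one of the mesenchyme markers, and *Ddr2*, a collagen receptor, was at 34.3 FPKM in E11 CTL and 0.562 in E14 CTL, so part of this list moved with the mesenchyme markers and its share in the median was not tested. Between genotypes at E14, 1 of 27 was at least 2-fold higher, where 1.85% of all genes were, namely *Pdgfrb*, whose FPKM was 0.625 (CTL) and 1.58 (*Stat3* cKO). The count was 0 with a pseudocount of 1 FPKM, 2 with the median gene set to 0 and 3 with upper-quartile scaling.

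**Figure D5:**
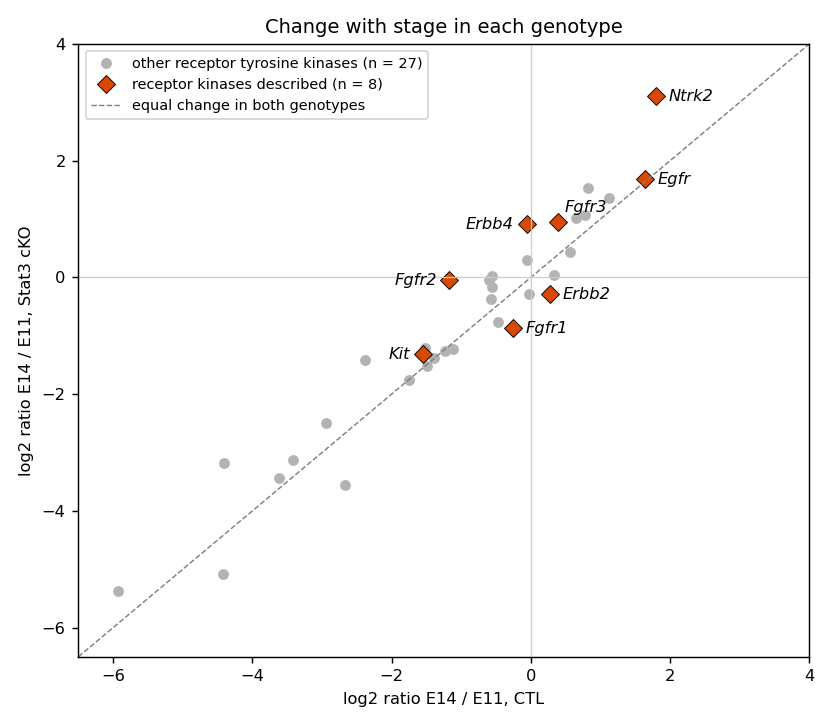
Log2 ratio of FPKM at E14 to E11 in CTL (horizontal) and in *Stat3* cKO (vertical) for the 8 receptor genes described (diamonds) and 27 other receptor tyrosine kinases (gray points). The dashed line marks equal ratios in both genotypes. *Egfr* and *Kit* lie near the line, *Ntrk2* and *Fgfr2* lie above it by 1.31 and 1.13, and most other receptor kinases lie at negative ratios in both genotypes.

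The genes whose pattern over the 4 libraries was most like that of a receptor were found by the distance between centered log2 values, among genes averaging 5 FPKM or more. This is a description over 4 libraries and says nothing of shared function. Nearest to *Fgfr2* were *Notch3*, at 7.89 (CTL) and 8.72 (*Stat3* cKO) FPKM at E11 and at 3.83 (CTL) and 8.15 (*Stat3* cKO) FPKM at E14 (distance 0.139), and *Mfng*, a glycosyltransferase gene (distance 0.142). Nearest to *Egfr* were *Fam19a5* and *1110001J03Rik*, and nearest to *Kit* were *Vldlr*, a lipoprotein and reelin receptor, and *LOC106740*. For *Ntrk2* the nearest genes, *3110035E14Rik* at 0.270 and *Skap2* at 0.332, were further away than for any other member. Nearest to *Fgfr1* were the entry that joins *Gas5* with a microRNA gene and *Nap1l1*, to *Fgfr3* *Speg* and *Slc8a2*, and to *Erbb2* *Spin2* and *Irak1*.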

How the data were processed

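RNA was sequenced from 4 libraries, 1 per group, and groups were taken from the sample labels. The authors checked reads with FastQC, aligned them and estimated expression with TopHat and Cufflinks, and deposited FPKM values per gene. The submitters' processing notes name Bowtie 0.12.2 and the builds mm8 and mm9, with no role given, so coordinates in the files are not printed. How Cufflinks scaled libraries to each other is not given in the sources used here.

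Deposited FPKM were used unchanged. Entries averaging 1 FPKM or more across the libraries were kept (12449 of 21091). Ratios were plain, without a pseudocount, a value of 0 in either library gave no ratio, and 2-fold was the threshold. No test was run and no error exists with 1 library per group. Symbols were matched exactly. The members, the 7 pathway lists and the 8 marker lists were chosen with earlier results of these data known. The naming rule took the 10 members, *Stat3*, pathway genes above this minimum that differed 2-fold in any comparison or led their list in E14 CTL, and the 2 nearest profiles per member. Marker genes and those said to be chosen after their values were seen lie outside it. A few genes that it took in are not reported here.

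FPKM hold no counts. Relative depth came from the FPKM that 1 fragment leaves in genes with a single transcript in GENCODE M21, from 0.0207 to 0.0265 FPKM at 1 kb. Fragment numbers are rough, as they assume the longest coding transcript, and cover counting error only. The calculation was tested on simulated data. Alternatives were pseudocounts of 0.1 and 1 FPKM, the median log2 ratio set to 0, upper-quartile scaling, no minimum or a minimum mean of 5 FPKM, and thresholds of 1.5-fold and 3-fold. Python 3.11.15, numpy 2.4.6, pandas 2.3.3, scipy 1.17.1 and matplotlib 3.10.9 were used.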

Additional observations from a re-analysis of the deposited data

Results flagged for a closer look

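The ratio of *Ntrk2* between genotypes pointed in opposite directions at the 2 stages. Its log2 ratio, *Stat3* cKO against CTL, was 0.68 at E14 (FPKM of 53.6 in CTL against 85.6) and -0.64 at E11 (FPKM of 15.4 in CTL against 9.88). The single library of each group moved one way at E14 and the other way at E11, and the difference was not tested, since there is 1 library per group.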

How the results depend on the processing

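Counts of members past the threshold moved with the settings that change the threshold or the minimum. The count of members lower between stages in *Stat3* cKO also moved with upper-quartile scaling. Members higher in *Stat3* cKO at E14 numbered 1 as reported, 3 with no minimum mean, 4 at 1.5-fold and 0 at 3-fold. Members lower at E11 numbered 0 as reported and 1 with no minimum mean or at 1.5-fold. Members lower at E14 than at E11 in CTL numbered 2 as reported, 1 with a minimum mean of 5 FPKM and 0 at 3-fold. In *Stat3* cKO, members higher at E14 than at E11 numbered 2 as reported and 4 with no minimum mean or at 1.5-fold, and members lower numbered 1 as reported, 2 with upper-quartile scaling or at 1.5-fold, and 0 with a minimum mean of 5 FPKM or at 3-fold. The members added with no minimum are *Fgfr4* and *Erbb3*, which rest on few fragments. The other 51 counts under alternatives stayed within 1.5 times the reported count. Upper-quartile scaling moved the median log2 ratio of all genes from -0.079 to 0.074 between genotypes at E14, from 0.059 to -0.010 at E11, from 0.21 to -0.16 between stages in CTL and from 0.058 to -0.091 between stages in *Stat3* cKO. Scaling to the summed FPKM of a library was applied only to the ranks of the members, and its effect on ratios and counts was not tested. No paired analysis was possible because each group has 1 library. Leaving out a library was not possible for the same reason, and depth limits only *Fgfr4* and *Erbb3* among the members.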
